A study of Mus musculus with 8 samples.

Results

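CatSper is the calcium channel of the sperm tail, and the RNA of 10 of its genes was followed here through 8 adult mouse testis libraries. The genes were taken by name: Catsper1, Catsper2, Catsper3, Catsper4, Catsperb, Catsperd, Catsperg1, Catsperg2, Catsperz and Efcab9. All 10 were among the 56748 gene identifiers of the count table, and all 10 were among the 21805 genes that passed the low-count filter and were tested. Of the 8 libraries, 4 carry the genotype label Ak9-/- and 4 the label WT, and all come from the testes of adult mice. AK9 is an adenylate kinase, an enzyme that interconverts adenine nucleotides, and the series asks how its loss affects sperm motility and male fertility. The labels give no strain, no age in days and no description of the Ak9 allele. They do not say that each library is a separate animal either, and a p-value here covers only the library-to-library spread, which may be technical.

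The channel is made in male germ cells, mostly after meiosis, and is built into the principal piece of the tail. It opens when the cytoplasm of the sperm becomes alkaline, and the calcium that enters drives the vigorous tail beat called hyperactivation, without which mouse sperm cannot fertilize. CATSPER1 to CATSPER4 form the pore, 1 copy of each. CATSPERB, CATSPERG and CATSPERD are accessory subunits with large parts outside the cell. CATSPERZ and EFCAB9 are a pair of small proteins on the inner side, of which EFCAB9 binds calcium.

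Ak9 itself did not follow the genotype labels. It stood at 69.3, 115.9, 100.8 and 40.6 CPM (counts brought to the same library total, after TMM scaling) in labelled knockouts 1 to 4, against 107.9, 115.1, 121.7 and 106.6 CPM in wild types 1 to 4. Labelled knockouts 2 and 3 were at 103% and 89.4% of the wild-type mean, and labelled knockouts 1 and 4 at 61.5% and 36.0%. The exact two-sided permutation test gave p = 0.143, where 4 against 4 libraries can go no lower than 0.0286. How much of a gene's RNA a knockout removes depends on the allele, which the labels do not describe. Why Ak9 differed among the labelled knockouts was not tested, so the libraries are called labelled knockout throughout. Total counts were 18062780 to 23846772 in labelled knockouts and 18763650 to 24415587 in wild types. Each CatSper gene had between 652 and 6841 counts in each library.

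Labelled knockout 3 stood apart from all other libraries in spermatid markers. The mean log2 level of 14 round spermatid markers, relative to the wild-type mean, was 0.35, 0.21, -0.73 and 0.29 in labelled knockouts 1 to 4, against 0.04, -0.14, 0.06 and 0.04 in wild types 1 to 4. All 14 of them were lowest in labelled knockout 3, as were 13 of 14 elongating spermatid markers. The summed level of the round spermatid markers ran from 1321 to 2569 CPM in labelled knockouts and from 1867 to 2129.9 CPM in wild types. Elongating spermatid markers summed to between 9596 and 23152 CPM in labelled knockouts and between 15131 and 18844 CPM in wild types. The mean of the spermatocyte list was -0.01, 0.13, -0.07 and 0.02 in labelled knockouts 1 to 4. In labelled knockout 3 its genes went both ways, among them Pgk2 and Ldhc at 53.8% and 70.4% of the wild-type mean. Mlh3 and Dmc1 were at 126% and 121% there. The list summed to 5271 CPM in labelled knockout 3, the lowest of all libraries, against 6558 to 6718 CPM in wild types. The Sertoli cell list was at -0.20, -0.21, 0.41 and -0.40 in labelled knockouts 1 to 4, and at -0.08 to 0.11 in wild types. The spermatogonia list was at -0.43, -0.04, 0.15 and -0.33 in labelled knockouts 1 to 4, and at -0.09 to 0.09 in wild types. The Leydig cell list was at -0.32, -0.42, 0.01 and -1.06 in labelled knockouts 1 to 4, and at -0.13 to 0.10 in wild types. Of 10 epididymal markers 3 passed the filter, and the 10 summed to between 161 and 354 CPM in labelled knockouts and between 171 and 189.9 CPM in wild types. Crisp1, one of the 10, was at 185 CPM in labelled knockout 3, 24.4 CPM in labelled knockout 4 and at most 0.534 CPM elsewhere. Adam7 was at 26.2 and 4.20 CPM in these libraries and at most 0.18 CPM elsewhere, and Spink8 at 50.6, 9.21 and at most 1.71 CPM. In labelled knockout 3 Rnase10 and Cst8 were at 54.4% and 51.4% of the wild-type mean, and Gpx5 had at most 3 counts in any library. Fold changes, pore ratios, correlations and slopes are therefore also given without labelled knockout 3. In bulk tissue, fewer cells of a type and less RNA per cell cannot be told apart, and the part of these shifts in the CatSper results was not tested.

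No difference between labelled knockout and wild-type testes was detected for any of the 10 CatSper genes. The edgeR quasi-likelihood test called 0 of 10 higher and 0 of 10 lower, with an adjusted p of 1.00 for each, and over all genes it called 4 of 21805 (0.0183%). At an unadjusted p under 0.05 the count was also 0 of 10, against 3.04% of all genes. DESeq2 and limma-voom (plain or with quality weights per sample) called 0 of 10 as well, by the adjusted p and at an unadjusted p under 0.05, and DESeq2 called 46 genes over the whole table (0.211%). The values of the groups overlapped for 10 of 10 genes, where 2.30% of all genes had groups that did not overlap. Fold changes on the log2 scale, labelled knockout over wild type, lay between -0.06 and 0.09, with 7 above 0 and 3 below, and their median was 0.04 against 0.01 over all tested genes.

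The pore genes come first. Catsper1 had 129.9, 115.3, 72.2 and 138.0 CPM in labelled knockouts 1 to 4, against 110.7, 95.2, 112.4 and 114.9 CPM in wild types 1 to 4. Catsper2 had 305.8, 248.3, 232.3 and 317.8 CPM in the labelled knockouts, against 267.2, 270.4, 276.7 and 273.6 CPM in the wild types. Catsper1 was thus lowest in labelled knockout 3 and Catsper2, although lowest there too, departed much less. The levels of Catsper3 were 81.1, 75.7, 32.2 and 66.1 CPM in labelled knockouts 1 to 4, against 60.8, 52.3, 65.1 and 61.7 CPM in wild types. For Catsper4 they were 116.6, 104.3, 66.5 and 102.5 CPM in labelled knockouts, against 98.6, 79.1, 97.9 and 95.5 CPM in wild types. In both genes labelled knockout 3 was below every wild type and the other labelled knockouts were above every wild type. The fitted ratio of labelled knockout to wild type was 1.05 for Catsper1 (0.824 to 1.34 at 2 SE either side), 1.02 for Catsper2 (0.859 to 1.20), 1.06 for Catsper3 (0.773 to 1.46) and 1.05 for Catsper4 (0.842 to 1.31).

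Among the accessory subunits, Catsperb had 113.4, 116.1, 86.9 and 112.2 CPM in labelled knockouts 1 to 4, against 100.5, 118.9, 117.8 and 103.3 CPM in wild types 1 to 4. Catsperd had 169.5, 153.3, 139.9 and 162.2 CPM in the labelled knockouts, against 165.2, 146.0, 156.8 and 144.3 CPM in the wild types. Both were lowest in labelled knockout 3, by a small margin for Catsperd. Catsperg1 read 206.9, 199.8, 225.1 and 208.0 CPM in labelled knockouts, against 237.0, 193.7, 226.6 and 211.5 CPM in wild types. Its copy Catsperg2 read 199.7, 188.0, 191.9 and 173.5 CPM in labelled knockouts, against 215.1, 192.1, 203.8 and 174.6 CPM in wild types. These 2 genes were not lowest in labelled knockout 3, where they stood at 104% and 97.7% of the wild-type mean. Ratios of labelled knockout to wild type were 0.973 for Catsperb (0.828 to 1.14 at 2 SE either side), 1.02 for Catsperd (0.889 to 1.17), 0.967 for Catsperg1 (0.840 to 1.11) and 0.959 for Catsperg2 (0.832 to 1.10).

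The pair of inner proteins followed the Catsper1 pattern. Catsperz had 170.7, 153.1, 93.4 and 158.4 CPM in labelled knockouts 1 to 4, against 137.5, 130.5, 147.3 and 139.8 CPM in wild types 1 to 4. Efcab9 had 108.5, 103.4, 45.8 and 115.0 CPM in the labelled knockouts, against 86.0, 77.9, 100.3 and 92.1 CPM in the wild types. Labelled knockouts 1, 2 and 4 were above every wild type for both genes and labelled knockout 3 was below every wild type. The ratio of labelled knockout to wild type was 1.04 for Catsperz (0.826 to 1.30 at 2 SE either side) and 1.05 for Efcab9 (0.755 to 1.45). The coefficient of variation of Efcab9 was 34.3% in labelled knockouts against 10.7% in wild types, and that of Catsperz was 24.0% in labelled knockouts against 4.98% in wild types. These spreads rest on labelled knockout 3. In labelled knockouts 1, 2 and 4 alone they were 5.33% for Efcab9 and 5.61% for Catsperz.

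**Figure D1:**
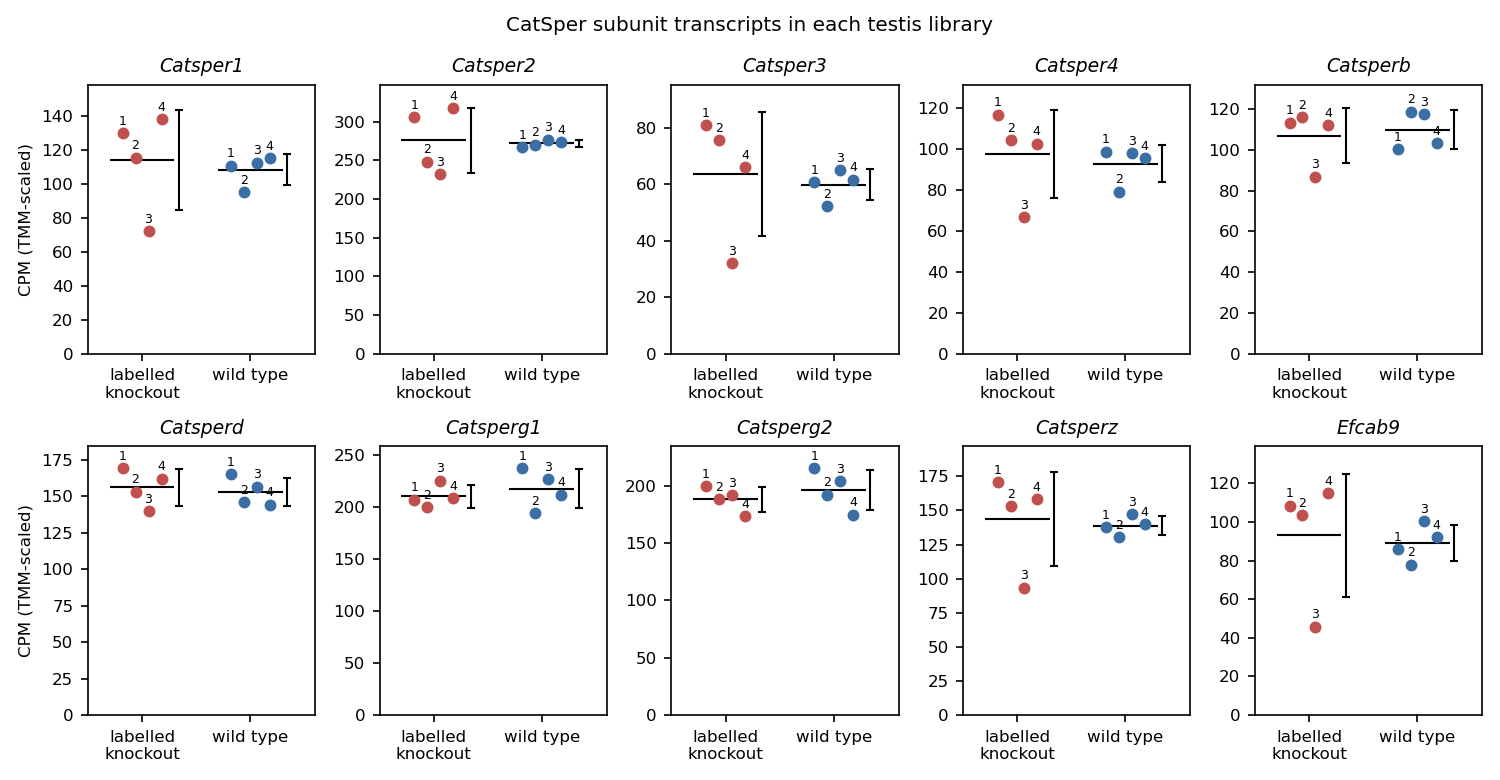
CPM (TMM-scaled, vertical axis from 0) of the 10 CatSper genes in 4 labelled knockout libraries (red) and 4 wild-type libraries (blue), with the replicate number at each point, the group mean as a line and 1 SD as a bar. The groups overlap for all 10 genes, and labelled knockout 3 is the lowest library for 8 of them but not for Catsperg1 and Catsperg2.

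For 5 of the genes labelled knockout 3 lay on the other side of the wild types from labelled knockouts 1, 2 and 4, and the 10 genes differed in how far it departed. As a share of the wild-type mean, labelled knockout 3 held 51.4% for Efcab9, 53.7% for Catsper3, 66.7% for Catsper1, 67.3% for Catsperz and 71.6% for Catsper4. It held 78.9% for Catsperb, 85.4% for Catsper2 and 91.4% for Catsperd. Per total count without TMM, which had a factor of 1.1252 in labelled knockout 3, the same shares ran from 57.0% for Efcab9 through 94.7% for Catsper2 and 101% for Catsperd to 115% for Catsperg1. The 8 genes lowest in that library compare with 29.1% of all tested genes that were lowest there.

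Leaving out labelled knockout 3 changed no call after adjustment, but moved the estimates. The log2 fold changes became 0.30 for Catsper3 (SE 0.10), 0.28 for Efcab9 (SE 0.09), 0.23 for Catsper1 (SE 0.09), 0.21 for Catsper4 (SE 0.09) and 0.20 for Catsperz (SE 0.07). These 5 of 10 genes were higher in labelled knockouts at an unadjusted p under 0.05 in edgeR, and 0 were lower, where 19.0% of all genes passed in either direction (2218 higher and 1991 lower of 22131). The smallest adjusted p among them was 0.147, for Efcab9, and 0.158% of all genes passed the adjusted threshold. In those same 5 genes labelled knockouts 1, 2 and 4 all lay above the 4 wild types, which held for 9.31% of all genes. In the same fit, 9 of 14 round spermatid markers and 10 of 14 elongating spermatid markers were higher at an unadjusted p under 0.05. Their part in the CatSper values was not tested.

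The next question was the stoichiometry of the RNA, that is, how many transcripts of each subunit there were for each of another. Counts of different genes were divided by gene length (all exons of a gene joined, GENCODE M21), which gives CPM per kilobase. Catsperz was the most abundant per length, at 114 ± 27.3 CPM per kilobase in labelled knockouts and 110.0 ± 5.48 in wild types (SD, n = 4 each). Efcab9 followed at 89.3 ± 30.6 in labelled knockouts and 85.4 ± 9.10 in wild types. Neighbours in the order were taken as separate where, within a group, every library of one gene lay above every library of the other. Catsperz and Efcab9 were separate in wild types and not in labelled knockouts, though Catsperz was above Efcab9 in all 8 libraries. The inner pair thus made up 20.9% and 16.0% of the summed per-length level of the 10 genes in labelled knockouts, against 20.8% and 16.1% in wild types.

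The 4 pore proteins are used in equal numbers, but their RNA was not equal. Catsper2 stood at 74.7 ± 11.4 CPM per kilobase in labelled knockouts and 73.6 ± 1.11 in wild types (SD, n = 4 each). Catsper1 was at 52.0 ± 13.4 in labelled knockouts and 49.5 ± 4.07 in wild types. Catsper3 was at 46.8 ± 16.1 and Catsper4 at 46.4 ± 10.3 in labelled knockouts, against 44.1 ± 4.01 for Catsper3 and 44.2 ± 4.38 for Catsper4 in wild types. Catsper2 was above Catsper1 in all 8 libraries, and separate from it in wild types only, with a mean ratio of 1.48 in labelled knockouts and 1.49 in wild types. It was not separate from Efcab9, the next above it, though Efcab9 was higher in all 4 wild types and in 3 labelled knockouts. Catsper1, Catsper4, Catsper3 and Catsperd, which follow one another, were not separate either. Within each library, by joined exons, Catsper1 was above Catsper4 in all 8. The highest over the lowest pore gene was 1.49, 1.35, 2.66 and 1.77 in labelled knockouts 1 to 4, against 1.62, 1.94, 1.61 and 1.63 in wild types 1 to 4. Its mean was 1.82 in labelled knockouts, or 1.54 without labelled knockout 3, and 1.70 in wild types. Wild type 2, the wild type with the lowest spermatid markers, had the highest of the wild-type ratios and labelled knockout 3 the highest of all. Labelled knockout 4, with a round spermatid list above every wild type, also had a higher ratio than wild types 1, 3 and 4. A relation between this ratio and the markers was not tested.

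By joined exons the accessory subunits were the least abundant. Catsperd stood at 43.5 ± 3.54 CPM per kilobase in labelled knockouts and 42.6 ± 2.72 in wild types (SD, n = 4 each). Catsperg1 was at 29.8 ± 1.53 in labelled knockouts and 30.8 ± 2.68 in wild types, and Catsperg2 at 26.8 ± 1.56 in labelled knockouts and 27.9 ± 2.46 in wild types. Catsperb was lowest, at 19.4 ± 2.46 in labelled knockouts and 19.9 ± 1.73 in wild types. In both groups Catsperd exceeded Catsperg1, and Catsperg2 exceeded Catsperb, with no overlap between libraries. Catsperg1 and Catsperg2 were not separate, though within each library Catsperg1 was the higher, in all 4 libraries of both groups. The most abundant gene of the 10 was 5.81 ± 0.811 times the least abundant in labelled knockouts and 5.55 ± 0.546 times in wild types.

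Part of this order depends on which length is used. With coding length Catsper2 was at 156 CPM per kilobase in labelled knockouts and 154 in wild types, above Efcab9 at 144 in labelled knockouts and 137 in wild types. The exons of Catsper2 join to 3695 bases, its longest transcript has 2293 and its coding sequence 1764, so of the pore genes it is the one whose level depends most on the length. The highest over the lowest pore gene was 2.82 in labelled knockouts and 2.65 in wild types by the longest transcript, and 3.34 in labelled knockouts and 3.07 in wild types by coding length. The place of the accessory subunits moved too. By the longest transcript Catsperd, at 61.1 in labelled knockouts and 59.9 in wild types, was above Catsper4, Catsper1 and Catsper3. By coding length Catsperd and Catsperg1, at 64.7 and 60.8 in labelled knockouts and at 63.4 and 62.9 in wild types, were above Catsper1 and Catsper3. Catsperz ranked first and Catsperb last under all 3 lengths in both groups. Catsper2 was the highest pore gene under all 3.

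**Figure D2:**
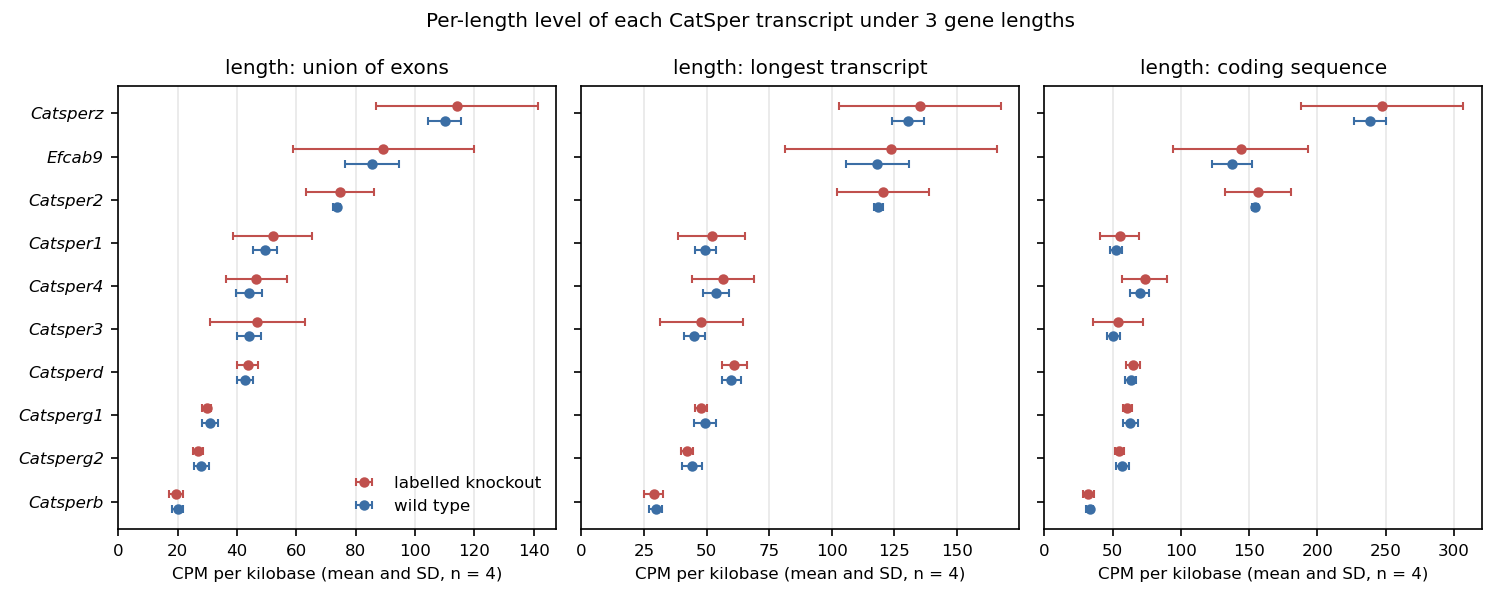
CPM per kilobase (horizontal axis from 0) of each CatSper gene in labelled knockouts (red) and wild types (blue), as the mean of 4 libraries with 1 SD, using the joined exons, the longest transcript or the coding sequence as the length. Catsperz is highest and Catsperb lowest in each panel, and of the pore genes Catsper2 moves most with the length.

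The ranks of the 10 genes were nearly the same from one wild type to another, with Spearman rho between 0.952 and 0.988 across the 10 genes. Labelled knockout 3 reached at most 0.891 with any other library, and the lowest value of any pair of libraries was 0.745. Ratios between genes do not depend on how a library is scaled, and some differed in labelled knockout 3. Catsper3 over Catsperg1, per length, was 2.03, 1.96, 0.740 and 1.64 in labelled knockouts 1 to 4, against 1.33, 1.40, 1.49 and 1.51 in wild types 1 to 4. Efcab9 over Catsperg1 was 3.54, 3.50, 1.37 and 3.73 in labelled knockouts, against 2.45, 2.72, 2.99 and 2.94 in wild types. By contrast Catsper4 over Catsper1 was 0.935, 0.942, 0.958 and 0.773 in labelled knockouts, against 0.927, 0.866, 0.907 and 0.866 in wild types. Here labelled knockout 3 lay near the other libraries.

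**Figure D3:**
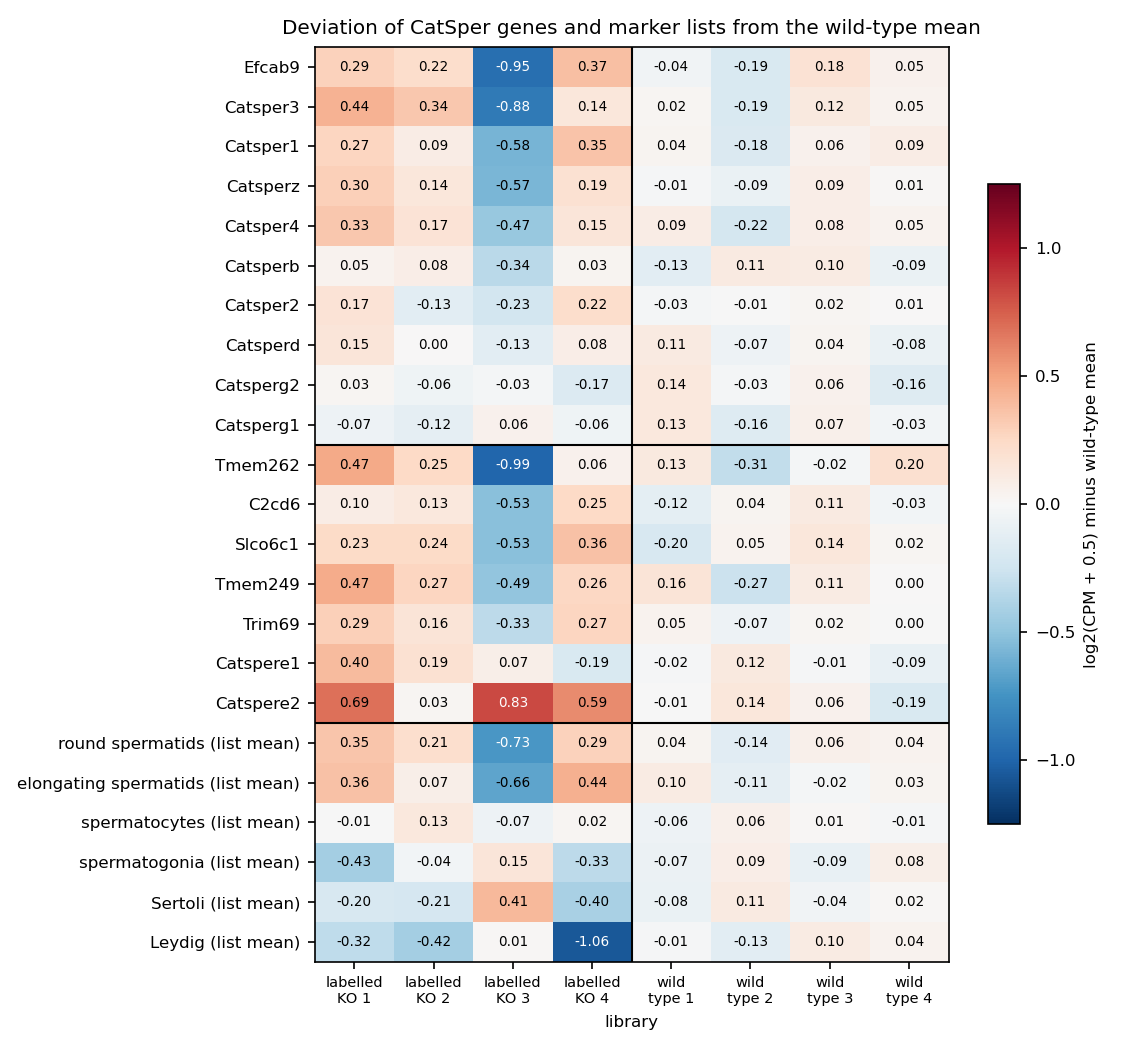
Level of each gene in each library as log2(CPM + 0.5) minus the wild-type mean, with labelled knockouts (labelled KO) left of wild types: the 10 CatSper genes on top, 7 other genes of the complex in the middle, and means of marker lists at the bottom. Labelled knockout 3 has -0.95 for Efcab9 and 0.06 for Catsperg1, beside -0.73 for the round spermatid list.

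Across the 8 libraries the pairs of CatSper genes differed in how closely they varied together. Of 45 pairs, 33 had a Pearson r above 0, and the median was 0.68. That median depended on labelled knockout 3 and on the scaling: it was 0.37 without that library and 0.12 without TMM. The highest values were among 5 genes, a set chosen after their values were seen, so they describe the set and do not test it: Catsper1, Catsper3, Catsper4, Catsperz and Efcab9. Their 10 pairs had r between 0.92 and 0.98 over 8 libraries, between 0.71 and 0.94 without labelled knockout 3, and between 0.86 and 0.98 without TMM. The other 5 genes, Catsper2, Catsperb, Catsperd, Catsperg1 and Catsperg2, had r between -0.59 and 0.69 among their 10 pairs, with a median of 0.27. The 25 pairs between both sets had r between -0.33 and 0.83, highest for Catsper1 with Catsper2, with a median of 0.65, or 0.18 without labelled knockout 3. In the 4 wild types alone, r within the 5 was 0.79 to 0.99. Catsperg1 had r of 0.58 to 0.91 with the 5 there, against -0.33 to -0.12 over 8 libraries. Catsper2 had 0.20 to 0.75 with them, Catsperd 0.22 to 0.59, Catsperg2 -0.03 to 0.27 and Catsperb -0.59 to -0.03. The gap between Catsperg1 and the 5 was thus not seen in wild types alone, where 4 libraries give an imprecise r.

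Catsperz and Efcab9, whose proteins bind each other, had the highest Pearson's r over the 8 TMM-scaled libraries, though not without labelled knockout 3 or without TMM. The lead was too small to set this pair apart, with r = 0.9824 against 0.9816 for Catsper3 with Catsperz. Spearman's rho was 0.9762 for both of these pairs and for Catsper1 with Efcab9. For Catsperz and Efcab9 Pearson's r was thus 0.98 (exact permutation p = 0.000198, adjusted p = 0.00201 over the 45 pairs). Their Spearman's rho was 0.98 (exact permutation p = 0.000397, adjusted p = 0.00595). Without labelled knockouts 1 and 3, the 2 libraries farthest from the median of the summed level, r was 0.99, and without labelled knockout 3 alone it was 0.92. Catsper3 and Catsper4 had r = 0.97 and rho = 0.93 (exact permutation p = 0.000124 and 0.00223, adjusted p = 0.00201 and 0.0167), r = 0.90 without those 2 libraries and r = 0.94 without labelled knockout 3 alone. Catsper2 and Catsper3, both pore genes, had r = 0.64 and rho = 0.57 (exact permutation p = 0.0888 and 0.151, adjusted p = 0.164 and 0.324), r = -0.15 without those 2 libraries and r = 0.21 without labelled knockout 3 alone, so their relation rests on them. Catsperg1 and Catsperg2 had r = 0.54 and rho = 0.43 (exact permutation p = 0.167 and 0.299, adjusted p = 0.259 and 0.539), r = 0.62 without those 2 libraries and r = 0.57 without labelled knockout 3 alone. Adjusted over the 45 pairs, 13 pairs passed 0.05 by Pearson's r and 8 by Spearman's rho. Of the 13, 10 were within the 5 genes and 3 between the sets. The 5 were chosen for their high r, so this count does not test the set. These p-values are over all 8 libraries, labelled knockout 3 among them, and the share among pairs of other genes was not computed. The libraries are shared by all pairs, which are not independent of one another.

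A measure free of library scaling is the spread of the log2 ratio of 2 genes over the libraries. Within the 5 genes its SD was 0.077 to 0.21, with a median of 0.16. Within the other 5 the median was 0.14, and between both sets it was 0.31, reaching 0.46 for Catsperg1 with Efcab9. This SD is also small for 2 genes that each vary little, so alone it does not show that they vary together. The SD of a single gene's log2 level over 8 libraries was 0.25 to 0.42 in the 5 genes. In the other 5 it was 0.099 to 0.15. The median ratio SDs within both sets were close, and pairs across them varied more. Without labelled knockout 3 these medians were 0.096 within the 5, 0.14 within the other 5 and 0.18 between the sets.

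**Figure D4:**
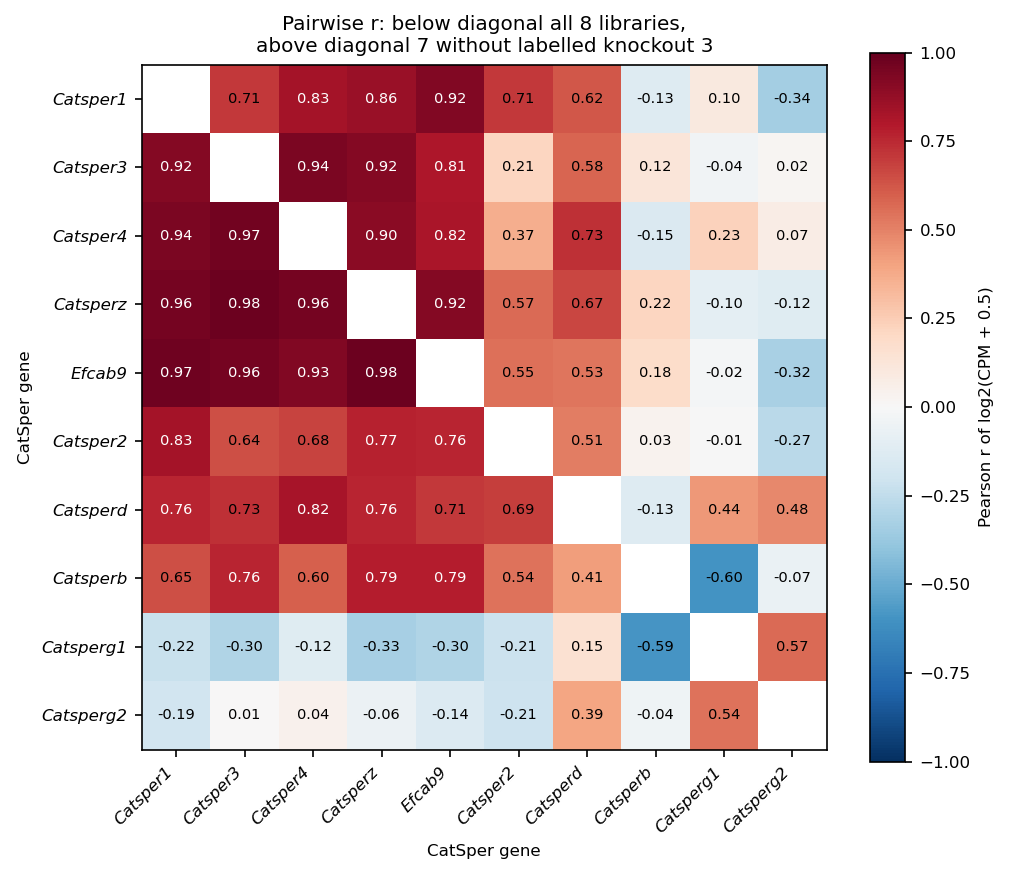
Pearson r of log2(CPM + 0.5) for each pair of CatSper genes, over 8 libraries below the diagonal and over the 7 without labelled knockout 3 above it. Catsper1, Catsper3, Catsper4, Catsperz and Efcab9 form a block of r between 0.92 and 0.98 below the diagonal and between 0.71 and 0.94 above it.

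The same 5 genes had the steepest slopes on the round spermatid markers. They were chosen from their values in these same libraries, so this is not separate support for the set. The least-squares slope of a gene's log2 level on the mean level of the round spermatid list, over 8 libraries, was 1.22 for Efcab9, 1.17 for Catsper3, 0.83 for Catsper1, 0.77 for Catsperz and 0.72 for Catsper4. A slope of 1 would mean that the gene and the list changed by the same factor. Without labelled knockout 3 the slope was 1.07 for Efcab9, 1.10 for Catsper3, 0.93 for Catsper1, 0.75 for Catsperz and 0.91 for Catsper4. For Catsperb the slope was 0.34 over 8 libraries and 0.03 without labelled knockout 3, for Catsper2 it was 0.32 and 0.38, and for Catsperd 0.22 and 0.35. Catsperg1 and Catsperg2 had slopes of -0.09 and -0.03 over 8 libraries. On the elongating spermatid list the 5 genes had slopes of 0.69 to 1.18 over 8 libraries and of 0.53 to 0.79 without labelled knockout 3. There Catsper2 had 0.38 and 0.47 and Catsperd 0.24 and 0.31, so these genes varied in the same direction as spermatid markers, less steeply. Measured against the round spermatid list, the mean log2 level of the 10 genes was -0.15, -0.14, 0.32 and -0.16 in labelled knockouts 1 to 4, against -0.01, 0.04, 0.02 and -0.05 in wild types 1 to 4. The mean of the 10 genes thus lay above the spermatid list in labelled knockout 3 and below it in the other labelled knockouts. Single genes differed from that mean. In labelled knockout 3 Efcab9 (-0.95) and Catsper3 (-0.88) were below the list (-0.73), and the others were above it. In labelled knockout 4 Catsper1 (0.35) and Efcab9 (0.37) were above the list (0.29), and the others were below it.

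**Figure D5:**
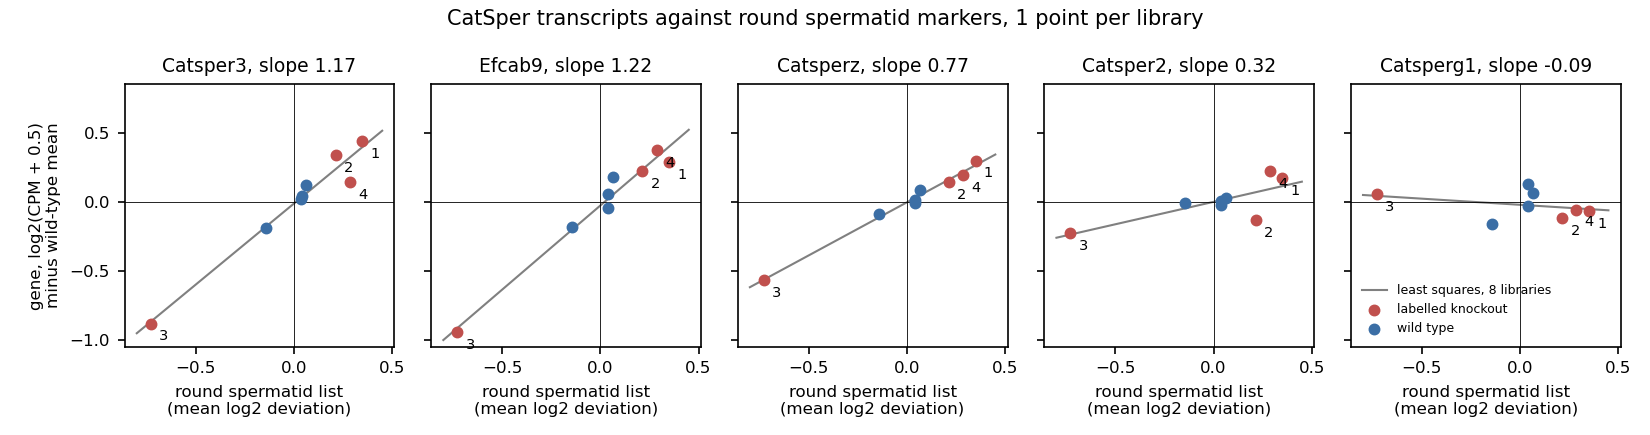
Log2 level of 5 CatSper genes relative to the wild-type mean (vertical) against the mean log2 deviation of 14 round spermatid markers (horizontal), 1 point per library, labelled knockouts in red with their number and wild types in blue, with the least-squares line over 8 libraries. The slopes are 1.17 for Catsper3, 1.22 for Efcab9, 0.77 for Catsperz, 0.32 for Catsper2 and -0.09 for Catsperg1.

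The start regions of the genes differ too, and 4 are shown because they span both sets: Catsper3 and Efcab9, with slopes of 1.17 and 1.22 on the round spermatid list, and Catsper2 and Catsperg1, with slopes of 0.32 and -0.09. The windows are the 250 bases before the RefSeq start (GRCm38.p6), written in the direction of the gene. In the first 3, capitals mark each CG dinucleotide.
Catsper3 (chr13:55784329-55784578, plus strand): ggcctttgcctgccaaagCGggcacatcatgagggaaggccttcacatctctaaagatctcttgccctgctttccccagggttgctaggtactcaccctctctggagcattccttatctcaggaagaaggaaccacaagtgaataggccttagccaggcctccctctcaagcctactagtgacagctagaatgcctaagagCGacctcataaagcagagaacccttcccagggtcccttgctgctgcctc
Efcab9 (chr11:32527575-32527824, minus strand): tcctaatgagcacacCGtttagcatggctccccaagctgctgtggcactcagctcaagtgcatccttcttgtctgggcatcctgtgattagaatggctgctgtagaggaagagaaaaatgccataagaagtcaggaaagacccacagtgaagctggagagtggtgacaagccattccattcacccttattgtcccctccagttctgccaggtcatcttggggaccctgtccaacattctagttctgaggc
Catsper2 (chr2:121413793-121414042, minus strand): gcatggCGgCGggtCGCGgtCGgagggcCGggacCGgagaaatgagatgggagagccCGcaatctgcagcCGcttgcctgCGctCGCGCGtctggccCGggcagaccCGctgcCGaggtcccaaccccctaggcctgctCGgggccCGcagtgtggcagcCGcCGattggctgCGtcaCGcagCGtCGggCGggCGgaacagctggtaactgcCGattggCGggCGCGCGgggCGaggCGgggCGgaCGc
In Catsperg1, capitals mark an X-box, the site read by RFX factors at many cilium genes.
Catsperg1 (chr7:29214034-29214283, minus strand): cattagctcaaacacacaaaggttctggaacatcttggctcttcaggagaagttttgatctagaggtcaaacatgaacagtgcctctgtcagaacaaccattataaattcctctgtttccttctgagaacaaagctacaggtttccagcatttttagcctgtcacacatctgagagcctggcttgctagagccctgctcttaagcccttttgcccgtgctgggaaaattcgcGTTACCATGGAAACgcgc

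RefSeq windows were matched for 8 of the 10 genes, with 2 starts each for Catsperd and Catsperg1. The Catsper2 window had 35 CG dinucleotides and 74.8% GC, whereas Catsper3 had 2 and 54.0% and Efcab9 had 1 and 50.8%. The median over all 32851 mouse promoter windows was 6 CG dinucleotides and 52.4% GC. Of the set with steep slopes, Catsper4 had 1 and Catsperz 7. Among the others Catsperb had 1, Catsperd had 25 and 11 at its 2 starts, and Catsperg1 had 5 and 7. CG content therefore did not separate the sets, since Catsperb was as poor in CG as Efcab9.

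Motifs were sought on both strands. TGACGTCA, the cAMP response element, is in 1.55% of all windows, GTTGCC, part of an RFX site, in 10.4%, and ACAATG, a SOX core, in 10.7%, and these letters were in none of the 10 windows. The other motifs were chosen after the sequences were seen. TGACG, which is part of the cAMP response element, was found in Catsper2 and in the first window of Catsperd, and in 17.8% of all windows. GGGCGG, a GC box, was in Catsper2 (3 times), in the first window of Catsperd and in the second of Catsperg1, and in 32.7% of all windows. TATAAA was in the first window of Catsperg1 and in 12.4% of all windows. The X-box, spelled GTTNCC, AT and GGNAAC without a gap and the same on both strands, began 18 bases before the first start of Catsperg1 and occurred in 36 of the 32851 windows (0.11%). A match describes these letters only and shows no binding.

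Catsperg1 and Catsperg2 are near copies on chromosome 7, so their separate values are uncertain. Their transcripts were 96.3% identical over 99.9% of Catsperg1, and 123 of 3435 aligned coding bases differed. Coding bases 4 to 123 are shown with the 5 differing bases in capitals, because reads between such bases fit both genes.
Catsperg1: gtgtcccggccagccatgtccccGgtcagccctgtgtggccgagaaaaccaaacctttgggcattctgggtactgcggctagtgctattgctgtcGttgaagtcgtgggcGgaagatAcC
Catsperg2: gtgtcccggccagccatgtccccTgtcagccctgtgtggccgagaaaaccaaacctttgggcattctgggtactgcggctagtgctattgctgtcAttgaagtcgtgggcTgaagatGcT
Of all 50-base stretches of Catsperg1, 41.0% occurred unchanged in Catsperg2, and of all 150-base stretches 8.86%. No source used here says how the authors counted reads with several matches. The ratio of Catsperg1 to Catsperg2 per length was 1.12 ± 0.0803 in labelled knockouts and 1.11 ± 0.0828 in wild types (SD, n = 4 each).

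Other genes also limit single values. Catsperz shares 587 of its 1262 exon bases with Kcnk4 on the same strand. Kcnk4 was counted at 2.14 ± 0.691 CPM in labelled knockouts and 1.66 ± 0.381 CPM in wild types. No source used here says how reads in the shared bases were assigned, which leaves the per-length level of Catsperz uncertain. Catsperb has a copy, Gm18795, that was 89.1% identical over 77.7% of its transcript and stood at 28.1 ± 10.2 CPM in labelled knockouts and 31.5 ± 1.77 CPM in wild types (SD, n = 4 each). Catsper2 overlaps Pdia3 on the other strand by 18 bases.

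A list of 7 other genes of the mouse CatSper complex included Catspere1, which GENCODE M21 annotates as a pseudogene. Of these 7, 0 passed the adjusted threshold in edgeR or DESeq2 in either direction. In edgeR 1 had an unadjusted p under 0.05, where 3.04% of all genes did. Their log2 fold changes were above 0 in 7 of 7, against 52.9% of all genes, with a median of 0.12 against 0.01 over all genes. Catspere2, which encodes an accessory subunit of the epsilon type, had 63.5, 40.0, 70.0 and 59.4 CPM in labelled knockouts 1 to 4, against 39.0, 43.4, 40.8 and 34.4 CPM in wild types 1 to 4. Labelled knockouts 1, 3 and 4 were above every wild type and labelled knockout 2 was within their range. The log2 fold change was 0.56 (SE 0.16, unadjusted p = 0.00457, adjusted p = 1.00 by edgeR's quasi-likelihood test). In labelled knockout 3 it stood at 178% of the wild-type mean, the highest share there of the 17 genes examined. Its near copy Catspere1, annotated in GENCODE M21 as a pseudogene and 89.7% identical to it, was at 105% there, and reads may be split between them.

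The other 5 genes of this list were lowest in labelled knockout 3. There, Tmem262 (encoding a small membrane subunit) was at 48.4% of the wild-type mean, Slco6c1 (a transporter-like subunit) at 69.1%, C2cd6 (a protein needed to bring the channel into the tail) at 69.3%, Tmem249 (another membrane subunit) at 70.4% and Trim69 at 79.7%. Per length, C2cd6 was the most abundant of all 17 genes, at 300.4 ± 64.9 CPM per kilobase in labelled knockouts and 297 ± 20.4 in wild types (SD, n = 4 each). Catspere2 was the least abundant, at 11.1 ± 2.45 in labelled knockouts and 7.49 ± 0.720 in wild types.

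Of 12 genes of sperm calcium and pH signalling, 0 passed the adjusted threshold in edgeR or DESeq2, which called 0.0183% and 0.211% of all genes. An unadjusted p under 0.05 in edgeR was found for 0 of 12, against 3.04% of all genes. The log2 fold change was above 0 for 9 of 12, against 52.9% of all genes, and the median was 0.06 against 0.01. Prkaca, the catalytic subunit of protein kinase A, had the smallest p, at 116.9 ± 15.1 CPM in labelled knockouts and 107.9 ± 3.24 CPM in wild types (SD, n = 4 each, log2 fold change 0.11, SE 0.11, adjusted p = 1.00). Labelled knockout 3 held 59.9% of the wild-type mean for Kcnu1, the sperm potassium channel SLO3, and 60.6% for Adcy10, the soluble adenylyl cyclase. It held 74.9% for Slc9c1, the sperm sodium-proton exchanger, and 123% for Atp2b4, a calcium pump.

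Many genes followed the mean of the 10. Among 19017 genes with a mean of at least 1 CPM, 1514 had r above 0.9 with it over 8 libraries and 224 over the 7 without labelled knockout 3. The closest over 8 libraries was Spaca1, a sperm acrosome gene of the round spermatid list (r = 0.9956). It was followed by 2610528A11Rik (0.9943), Slc39a13 (0.9924), Got1l1 (0.9922) and Cytl1 (0.9919). Over 7 libraries the closest were Kbtbd4 (0.9915), Adam4 (0.9898), Lrp12 (0.9886), Spaca1 (0.9847) and Gm45521 (0.9793). Spaca1 is the one gene in both lists.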

How the data were processed

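Adult mouse testis RNA was sequenced in 8 libraries. The labels' protocols describe TRIzol extraction, DNase treatment and TruSeq RNA libraries. The deposited table holds raw counts, whole numbers per Ensembl gene that the authors had not normalized. The submitters' processing notes name Trimmomatic, STAR, featureCounts and DESeq2 with builds GRCm39 and mm39. Which versions, annotation release, strand setting and rule for reads with several matches they used is not given in the sources consulted.

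Genes were filtered with filterByExpr (minimum count 10, minimum total 15), scaled by TMM and tested by quasi-likelihood in edgeR 4.0.16 (R 4.3.3, with limma 3.58.1), two-sided, without covariates, with Benjamini-Hochberg adjustment over 21805 genes and a threshold of 0.05. CPM are TMM-scaled per total of the tested genes, and log2 levels used a pseudocount of 0.5 CPM. A count of 0 allows up to 0.123 to 0.166 CPM, taking 3 counts as the 95% limit, for counting error only. Within each group no library was a copy of another, with a chi-square per gene of 4.52 or higher. Correlations used exact permutation of the pairings. Names, lengths, overlaps and copies (blastn 2.17.0) come from GENCODE M21 on GRCm38, a build other than the authors', and promoter sequences from RefSeq GRCm38.p6. Coding lengths are those of the longest annotated coding sequence.

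The 10 genes and the marker lists were chosen with earlier results of these data known. Besides the 10 genes, the text names Ak9, the gene with the smallest p of each list, and the 5 genes closest to the mean of the 10 over 8 and over 7 libraries. Other named genes, and the split into 2 sets of 5, were chosen after their values were seen. Alternatives were a replicate block, RLE size factors, other low-count filters, DESeq2 1.42.0, limma-voom with and without quality weights, other gene lengths, no TMM, other pseudocounts, Spearman's rho, group-centred levels, other spermatid denominators, and leaving out each library. The scripts were tested on simulated data.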

Additional observations from a re-analysis of the deposited data

Results flagged for a closer look

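Each group of 4 libraries was searched for a value far from the rest, over 36 groups, and chance marks about 1 group in 20. Efcab9 in labelled knockout 3, at 45.8 CPM, lay apart from the other labelled knockouts, the gap being 0.833 of the group's range. Catsperb in labelled knockout 3, at 86.9 CPM, did so too, with a gap of 0.865 of the range. Catsper4 in wild type 2, at 79.1 CPM, lay apart from the other wild types, with a gap of 0.844 of the range. The round spermatid list was also lowest in labelled knockout 3 among labelled knockouts (-0.73) and in wild type 2 among wild types (-0.14); its part in these values was not tested.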

How the results depend on the processing

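The count of CatSper genes called was 0 in each direction under every alternative run. Over all genes, the main count of 4 became 26 without a low-count filter, 46 with DESeq2, 14 with limma-voom and quality weights, and 3 to 35 when 1 library was left out. All 10 log2 fold changes were small, and several changed sign: Catsperb was 0.028 with limma-voom and quality weights and Efcab9 -0.017 with limma-voom. Leaving out 1 library gave -0.035 to 0.23 for Catsper1, -0.054 to 0.083 for Catsper2, -0.056 to 0.30 for Catsper3, -0.033 to 0.21 for Catsper4, -0.095 to 0.036 for Catsperb, -0.017 to 0.068 for Catsperd, -0.047 to 0.20 for Catsperz and -0.055 to 0.28 for Efcab9. Without labelled knockout 1, 33 genes were called, without labelled knockout 3, 35, and without labelled knockout 4, 33.

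The replicate numbers of the 2 groups are not stated to pair libraries, and same-numbered libraries deviated together with r of 0.125, 0.0537, -0.0474 and 0.0364. With the numbers as a replicate block the count over all genes was 4 and Efcab9 was -0.0034. The highest over the lowest pore gene per length, 1.82 in labelled knockouts and 1.70 in wild types, became 2.82 in labelled knockouts and 2.65 in wild types with the longest transcript, and 3.34 in labelled knockouts and 3.07 in wild types with coding length, by the construction of the length. The median pairwise r of 0.68 became 0.12 without TMM, 0.43 with Spearman's rho, 0.33 without labelled knockouts 1 and 3, and 0.37 to 0.73 when 1 library was left out, lowest without labelled knockout 3. The cause of the other changes was not tested. Per-length ratios rest on gene models of another build, and single values of near copies on how reads were shared out.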

Other observations

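Marker lists of the other testis cell types held 0 genes past the adjusted threshold in edgeR's quasi-likelihood test, and DESeq2 called 1, Hsd3b1 (adjusted p = 0.0051). At an unadjusted p under 0.05 edgeR had 1 of 8 Leydig cell markers lower, 1 of 10 Sertoli cell markers lower (Kitl) and 1 higher (Sox9), and 1 of 3 tested epididymal markers higher, where 3.04% of all genes passed in either direction. Hsd3b1, a steroid-making enzyme of Leydig cells, had the smallest p of its list, at 54.7 ± 13.6 CPM in labelled knockouts and 98.3 ± 12.8 CPM in wild types (SD, n = 4 each, log2 fold change -0.85, SE 0.17, adjusted p = 0.382), with all 4 labelled knockouts below all 4 wild types. Kitl, the KIT ligand made by Sertoli cells, stood at 24.9 ± 4.10 CPM in labelled knockouts and 35.2 ± 4.04 CPM in wild types (SD, n = 4 each, log2 fold change -0.50, SE 0.13, adjusted p = 0.948), also without overlap, which held for 2.30% of all genes. Sox9, of the same list, went the other way without overlap, with all 4 labelled knockouts above all 4 wild types. It stood at 30.9 ± 5.02 CPM in labelled knockouts and 22.2 ± 2.20 CPM in wild types (SD, n = 4 each, log2 fold change 0.48, SE 0.13). The log2 fold changes of the other genes with the smallest p of a list, each with an adjusted p of 1.00 and overlapping groups, were -0.31 for Ret (spermatogonia), 0.22 for Syce3 (spermatocytes), 0.23 for Tex36 (round spermatids), 0.61 for Car4 (elongating spermatids), 0.34 for Acta2 (peritubular and stromal cells), -0.36 for Kdr (endothelium), -0.28 for Lyz2 (macrophages) and 3.32 for Spink8 (epididymis). Spink8 was at 50.6 CPM in labelled knockout 3 and 9.21 CPM in labelled knockout 4, against 1.35 to 1.71 CPM in wild types.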
